A study of Catharanthus roseus with 35 samples.

Results

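In the medicinal plant Catharanthus roseus, 100 genes had transcript levels that were alike indoors and outdoors in the youngest leaf pair and were several-fold lower outdoors in the fourth leaf pair. They were picked from 35722 genes by these measured levels. A gene had to reach a mean CPM of 10 (CPM is the gene's share of all counts in a sample, scaled so that a sample sums to 1e6) in leaf pair 4 indoors, which 11497 genes did. Its group means in leaf pair 1 also had to lie within 1.3-fold of each other, which left 7971 genes. After 9 genes of alkaloid biosynthesis were set aside by name, the 100 with the largest log2 ratio of indoors to outdoors in leaf pair 4, after adding 1 CPM to each mean, were taken. The values in leaf pairs 1 and 4 chose the members and are therefore given as a description, without a test.

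All plants were of the cultivar Little Bright Eye, in flower, and leaf pair 1 was the youngest, nearest the apex of the shoot. Indoor plants stayed in a growth chamber at 25 °C with 16 h of fluorescent light, and outdoor plants spent about 6 months in direct sunlight. Leaves of 3 plants per condition were collected in the early afternoon of a hot, sunny day in September, and their central veins were removed. Leaf pairs 1 and 4 were read by Illumina sequencing (12 samples, 3 per group) and leaf pairs 2 and 3 by Nanopore sequencing (12 samples, 3 per group). A separate experiment used chamber-grown plants that were 6 months old. It had idioblast protoplasts, mesophyll protoplasts and total protoplasts (3 each) and intact leaves (2), with each replicate pooled from several plants. Idioblasts are leaf cells that store alkaloids, and protoplasts are cells freed of their walls by enzymes. Illumina leaf samples held 11567947 to 15122993 counts, samples of the protoplast experiment 10263533 to 17625811, and Nanopore samples 85976 to 732961, so that low genes were measured least well in leaf pairs 2 and 3.

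C. roseus makes monoterpenoid indole alkaloids, which include the anticancer compounds vinblastine and vincristine. Their route begins in the internal phloem-associated parenchyma, continues in the epidermis, where tryptamine and secologanin are joined to strictosidine, and ends in idioblasts and laticifers with vindoline. In the central part of the route strictosidine is deglucosylated and rebuilt through stemmadenine into catharanthine and tabersonine. Transcription of many of these genes is known to respond to jasmonate, to light and to leaf age.

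The sources used here, which include the study's table of alkaloid pathway genes, held a description for only 2201 of the 35722 genes. Of the 100 members, 93 had no description there, and 7 were described. Of these, 3 belong to alkaloid biosynthesis or its control: PAS (CATHA_12148), which oxidises O-acetylstemmadenine, Redox2 (CATHA_30555), a reductase on the way to stemmadenine, and ORCA3 (CATHA_9515), an AP2/ERF transcription factor that responds to jasmonate. The remaining 4 were a glycine-rich cell wall structural protein (CATHA_22855), an adenylate-forming reductase (CATHA_991), a putative glycosyltransferase (CATHA_29770) and a protein with a sterile alpha motif/pointed domain (CATHA_17430). In 5 cases members had ID numbers at most 5 apart, CATHA_22854 with CATHA_22855, CATHA_37341 with CATHA_37342, CATHA_3579 with CATHA_3581, CATHA_10087 with CATHA_10092, and CATHA_14873 with CATHA_14878. Their positions in the genome were not analysed here.

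PAS was measured at 65.0, 60.3 and 44.4 CPM in the samples of leaf pair 4 indoors and at 7.85, 6.74 and 6.04 CPM outdoors, a ratio of 7.31 with the added 1 CPM. In leaf pair 1 its mean was 37.2 ± 2.89 CPM (SD, n = 3) indoors and 30.7 ± 4.06 CPM (SD, n = 3) outdoors. Thus PAS was higher in the older than in the younger leaves indoors and lower in the older leaves outdoors, and the pair 4 groups lay far apart. Redox2 stood at 152, 142 and 123 CPM in leaf pair 4 indoors and at 44.9, 43.0 and 47.3 CPM outdoors, a ratio of 3.04. Its leaf pair 1 means were 161 ± 4.88 CPM indoors and 142 ± 7.02 CPM outdoors (SD, n = 3 each). Redox2 therefore kept nearly its young-leaf level indoors, and its outdoor samples were close together at about the same low level.

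ORCA3 was at 18.3, 28.1 and 3.79 CPM in leaf pair 4 indoors and at 1.60, 1.56 and 3.26 CPM outdoors. The groups did not overlap, but replicate 3 indoors came close to the highest outdoor sample, and the group mean of 16.7 ± 12.2 CPM (SD, n = 3) rested on the other 2 plants. Its leaf pair 1 values were spread as widely, from 0.669 to 9.71 CPM indoors, and ORCA3 left the list when any one of 4 leaf pair 1 samples was omitted. The glycine-rich cell wall protein gene CATHA_22855 had the largest ratio of all members, 11.4, with 168, 94.9 and 59.3 CPM in leaf pair 4 indoors and 5.05, 6.48 and 14.03 CPM outdoors. The adenylate-forming reductase CATHA_991, a type of enzyme that activates and reduces carboxylic acids, was nearly silent in leaf pair 1, with means of 0.533 CPM indoors and 0.539 CPM outdoors. It reached 26.0, 24.8 and 20.2 CPM in leaf pair 4 indoors against 1.28, 1.04 and 1.88 CPM outdoors, a ratio of 10.3. These 2 genes were both higher in old than in young leaves of indoor plants. The glycosyltransferase CATHA_29770 and the pointed domain protein CATHA_17430 changed less, with ratios of 2.68 and 2.53.

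**Figure D1:**
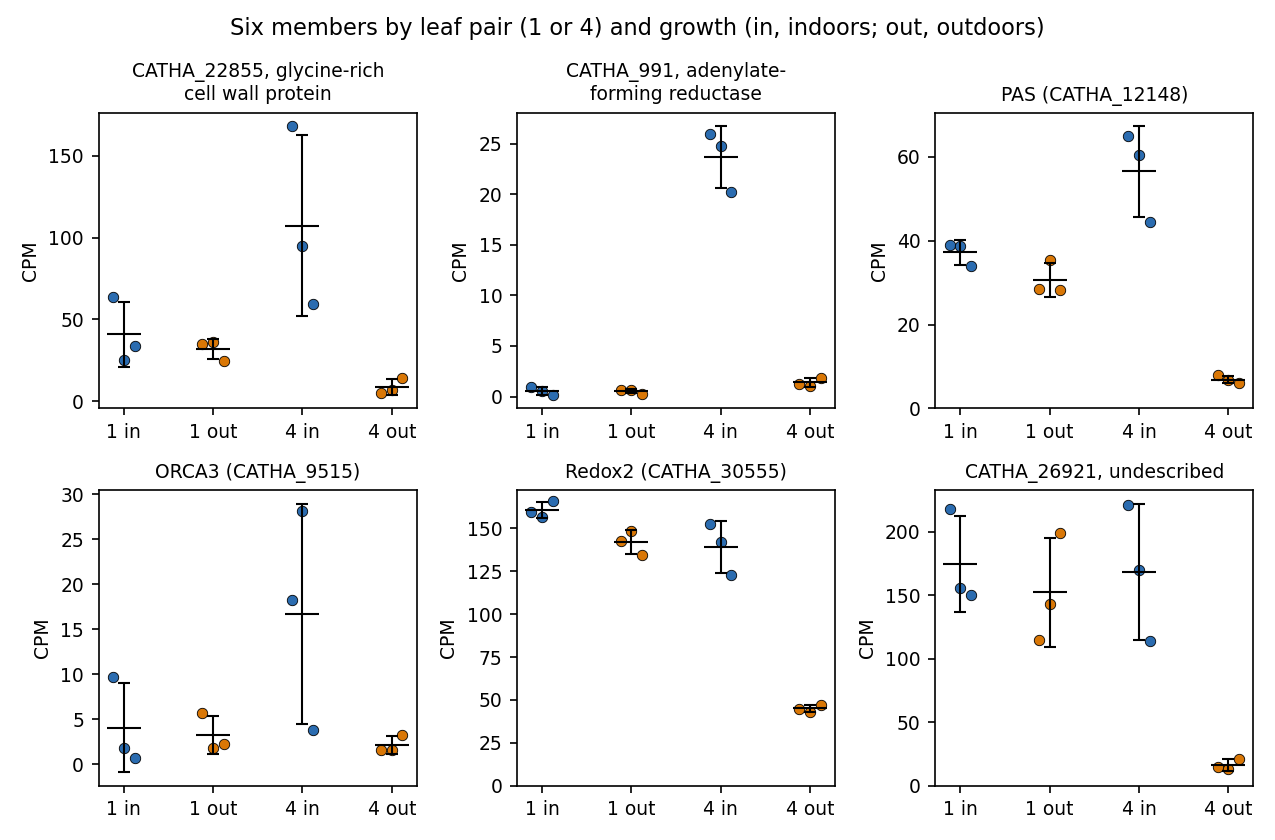
CPM (counts divided by the column total) of 6 members in each sample of leaf pairs 1 and 4, with the mean and SD of 3 plants as bars. PAS lay at 44.4 to 65.0 CPM indoors and at 6.04 to 7.85 CPM outdoors in leaf pair 4, whereas the leaf pair 1 groups of each gene had similar means.

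Among the 10 members with the largest ratios, 6 had no description. CATHA_26921 was at 221, 170 and 114 CPM in leaf pair 4 indoors and at 14.3, 12.8 and 21.3 CPM outdoors. CATHA_6701 was at 82.8, 35.6 and 11.4 CPM indoors and at 0.641, 4.93 and 3.75 CPM outdoors, and CATHA_35508 at 56.6, 24.3 and 6.26 CPM indoors and at 2.00, 2.59 and 4.32 CPM outdoors. In both genes the indoor plants differed among themselves by several-fold, with replicate 3 lowest. CATHA_10485 had 104, 119 and 85.2 CPM indoors and 20.1, 14.1 and 20.3 CPM outdoors. CATHA_6018 and CATHA_12697 were lower genes, with 17.4, 13.7 and 7.41 CPM and 14.5, 6.96 and 9.79 CPM indoors, and at most 0.864 and 1.14 CPM outdoors, respectively.

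Over all members the ratio ran from 2.53 to 11.4 with a median of 3.24. The median member stood at 38.7 CPM in leaf pair 4 indoors and at 10.03 CPM outdoors, against 38.1 and 32.2 CPM in leaf pair 1. The limit of the list was not a natural gap. The last members inside, CATHA_19791, CATHA_22118 and CATHA_17430, had log2 ratios of 1.35, 1.34 and 1.34, and the nearest genes outside, CATHA_29900, CATHA_31551 and CATHA_17833, had 1.34, 1.33 and 1.32. In 92 members each outdoor sample of leaf pair 4 lay below each indoor sample, where 25.9% of the 17299 genes tested in these samples did so, a count that the rule favours. In the other 8, among them CATHA_2262 with 22.7, 7.97 and 4.03 CPM indoors and 3.52, 2.68 and 5.55 CPM outdoors, the groups overlapped. Although leaf pair 1 was held within 1.3-fold, 79 members had a lower mean outdoors there as well, against 60.3% of the 7969 genes that met the same conditions.

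The indoor plants were not alike for these genes. Replicate 1 was the highest of the 3 indoor samples of leaf pair 4 for 62 members and replicate 3 the lowest for 72, with member medians of 50.0, 38.6 and 26.3 CPM in replicates 1, 2 and 3. Outdoors, replicate 3 was the highest for 65 members, with medians of 9.25, 8.73 and 13.3 CPM. Among the 7969 genes that met the level and leaf pair 1 conditions, indoor replicate 1 was highest for 42.3% and outdoor replicate 3 for 34.9%. Membership depended on single samples. Between 54 and 90 members stayed when 1 of the 12 samples was left out, the fewest without leaf pair 1 indoors replicate 1, and 27 stayed whichever sample was omitted. Of the described members, Redox2 was among these 27.

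The members differed in how their levels in leaf pair 4 compared with those in leaf pair 1. In 58, the falling class, the outdoor mean was at least 2-fold lower in leaf pair 4 than in leaf pair 1 and the indoor mean was not 2-fold higher, as in PAS and Redox2. In 33, the rising class, the indoor mean was at least 2-fold higher in leaf pair 4 than in leaf pair 1 without such a drop outdoors, as in CATHA_991 and ORCA3, and CATHA_22855 met both conditions. The remaining 8, with CATHA_29770 and CATHA_17430 among them, did neither. Counting CATHA_22855 in both, the lower outdoor level was seen in 59 of 100 members and the higher indoor level in 34 of 100, against 7.17% and 4.07% of the 7969 genes that met the same conditions, a contrast to which the rule contributes. The falling genes had median levels of 90.4 and 80.4 CPM in leaf pair 1 indoors and outdoors and of 40.6 and 11.01 CPM in leaf pair 4. The rising genes began low, at 7.88 and 7.48 CPM, and reached 39.0 CPM indoors and 11.2 CPM outdoors. Median levels of both classes were thus alike in the old leaves and far apart in the young leaves, which the class definitions favour.

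**Figure D2:**
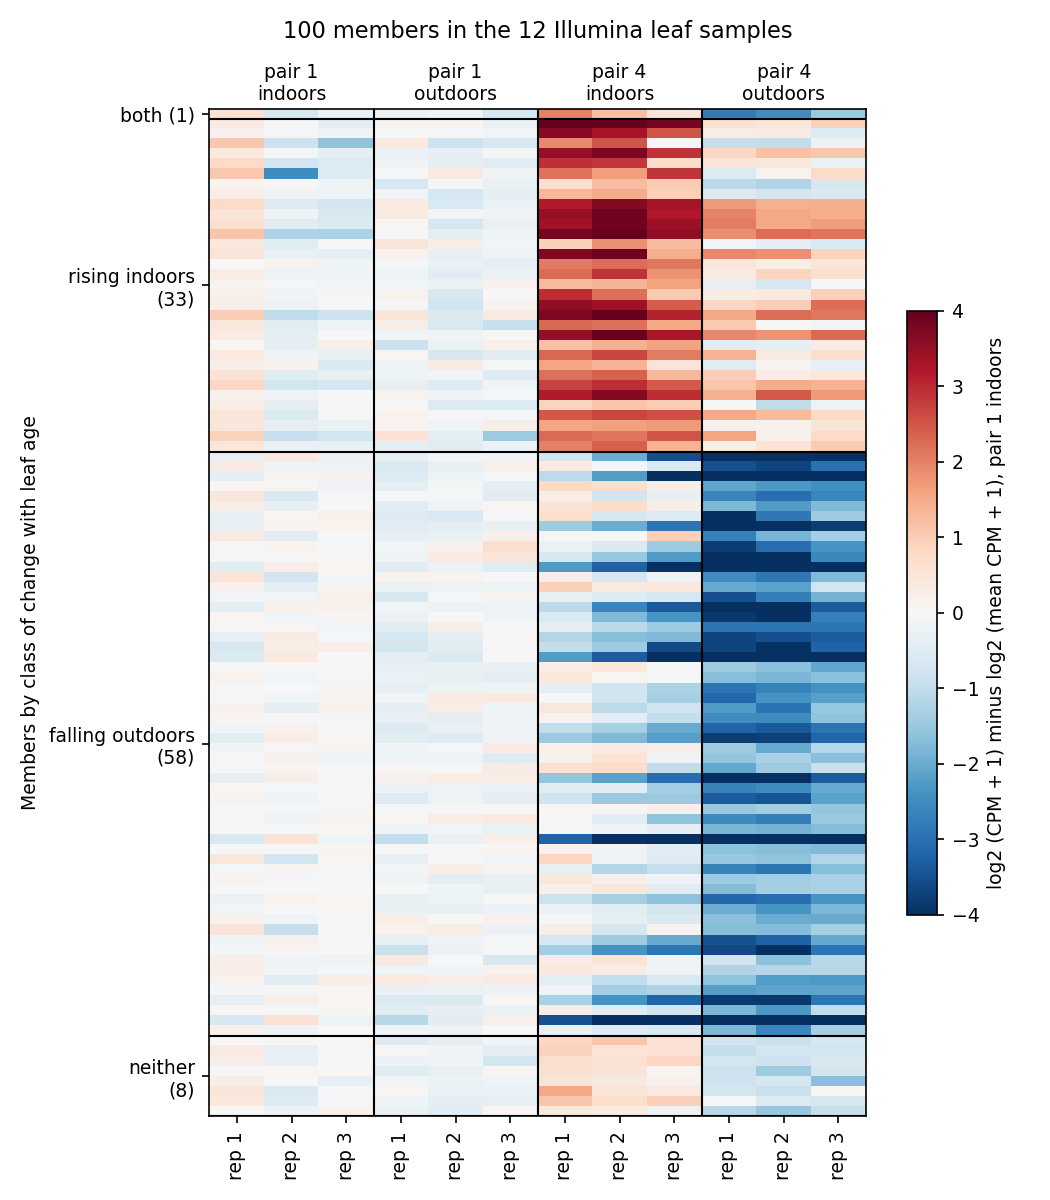
Level of each of the 100 members (rows) in the 12 Illumina samples (columns), as log2 (CPM + 1) minus that of the mean of leaf pair 1 indoors, with colours saturating at 4 in either direction. The 33 rising members turn red in leaf pair 4 indoors and stay paler outdoors, and the 58 falling members are near white to blue indoors and darker blue outdoors.

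Leaf pairs 2 and 3 came from the same plants but were other leaves and other libraries, and were not used to choose the members. They address whether the outdoor difference was present in leaves of intermediate age. Of the 100 members 49 had enough reads to be tested. In leaf pair 3, 30 of the 49 were lower outdoors and none was higher, whereas 6.67% of all 5641 genes tested were lower and 6.51% higher. A call here needed a Benjamini-Hochberg adjusted p no larger than 0.05 from the edgeR quasi-likelihood test together with a 2-fold change, that is, a log2 FC (fold change) beyond 1 in either direction. The median log2 FC of the tested members was -1.38, against -0.04 over all genes, and 47 of 49 lay below 0. In leaf pair 2, 6 of 49 were lower and none higher, against 4.18% lower and 6.01% higher of all genes. The median log2 FC was -0.60 against 0.00 over all genes, and again 47 of 49 lay below 0. Each outdoor sample lay below each indoor sample for 37 of the 49 in leaf pair 3 and for 12 of the 49 in leaf pair 2, where 16.3% and 10.5% of all genes did so. All 6 members called in leaf pair 2 were also called in leaf pair 3.

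A low gene can pass the read filter through its indoor samples alone, which favours a lower call, so the counts and medians over the 49 are a description. Of the 49 tested members 20 did not reach 20.1 CPM, about the level the filter asks for, in 3 outdoor samples. Among the other 29, 17 were lower in leaf pair 3, where 4.72% of the 4361 genes that met the same outdoor condition were lower. In leaf pair 2, 3 of the 29 were lower (CATHA_26921, Redox2 and CATHA_29357), against 3.0% of those 4361 genes. With no read filter, so that all 100 members entered, 28 were lower in leaf pair 3 and 9 in leaf pair 2, where 2.07% and 1.24% of 18738 genes were. DESeq2 called 20 members lower in leaf pair 3, where it called 3.8% of the genes it tested lower. The count for leaf pair 3 was 17 without outdoor replicate 1 and 18 without indoor replicate 2, and that for leaf pair 2 was 2 without indoor replicate 2.

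**Figure D3:**
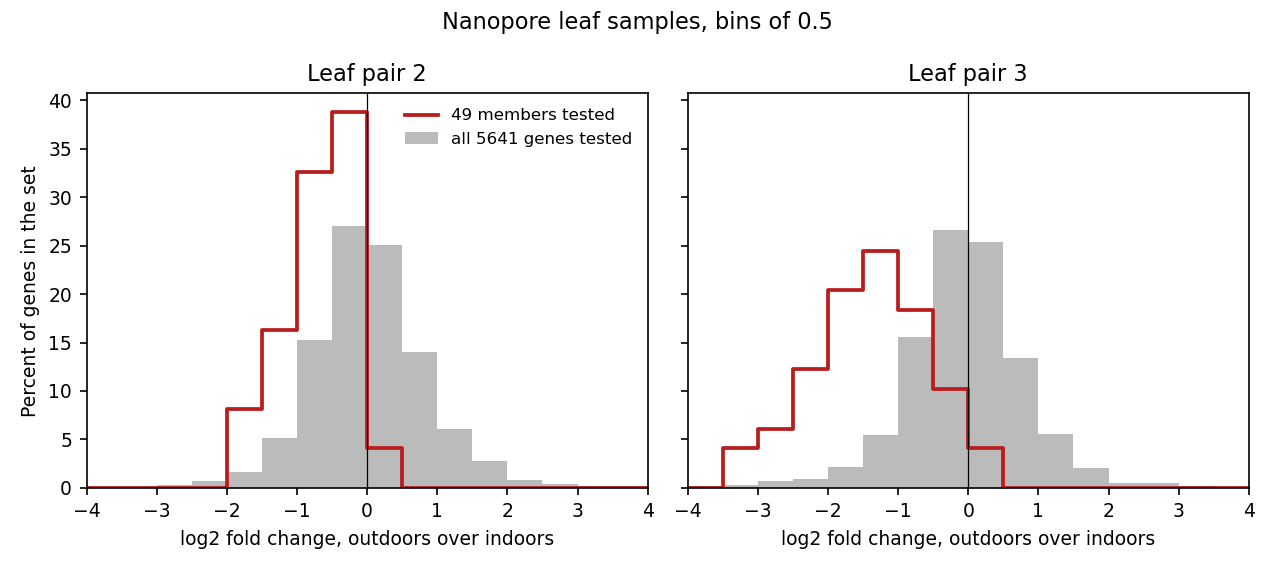
Distribution of log2 FC, outdoors over indoors, in Nanopore samples of leaf pairs 2 and 3, as the percent of genes per bin of 0.5 for all 5641 genes tested (grey bars) and the 49 members tested (red line), shown from -4 to 4. The members lie to the left of all genes in both leaf pairs, with medians of -0.60 in leaf pair 2 and -1.38 in leaf pair 3.

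CATHA_26921 was at 71.9, 92.6 and 115 CPM (here scaled by the trimmed mean of M values, TMM) in leaf pair 2 indoors and at 33.4, 41.3 and 31.9 CPM outdoors, and at 73.5, 72.6 and 70.9 CPM in leaf pair 3 indoors and at 17.0, 21.2 and 17.0 CPM outdoors. The groups did not overlap in either leaf pair. Its log2 FC was -1.48 ± 0.30 (SE) in leaf pair 2 and -2.01 ± 0.32 (SE) in leaf pair 3, with edgeR adjusted p of 0.00108 and 5.1e-05. Redox2 stood at 144, 154 and 123 CPM indoors and at 36.4, 95.5 and 56.3 CPM outdoors in leaf pair 2, and at 118, 121 and 138 CPM indoors and 53.1, 44.7 and 51.0 CPM outdoors in leaf pair 3. Its log2 FC was -1.20 ± 0.29 (SE, edgeR adjusted p = 0.0065) in leaf pair 2 and -1.38 ± 0.29 (SE, edgeR adjusted p = 0.0013) in leaf pair 3, so that this central pathway gene was lower outdoors in each of the leaf pairs the choice did not use. In leaf pair 2 its call was lost without indoor replicate 2 and without outdoor replicate 1, whereas that of CATHA_26921 held under every alternative run.

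The next 3 genes, CATHA_20360, CATHA_22855 and CATHA_10485, passed the read filter only through their indoor samples. CATHA_20360 was lower in leaf pair 2 by a log2 FC of -1.75 ± 0.39 (SE) and in leaf pair 3, where its samples were at 25.2, 39.6 and 24.3 CPM indoors and at 4.25, 4.71 and 1.89 CPM outdoors, by -3.02 ± 0.54 (SE). The cell wall protein gene CATHA_22855 was at 31.5, 74.8 and 54.7 CPM in leaf pair 3 indoors and at 21.2, 7.06 and 9.44 CPM outdoors, a log2 FC of -2.11 ± 0.43 (SE, edgeR adjusted p = 0.00103), and at -1.54 ± 0.44 (SE) in leaf pair 2. CATHA_10485 was lower in both as well (-1.65 ± 0.45 and -1.23 ± 0.41, SE). In leaf pair 2 the calls of all 3 were lost without indoor replicate 2, that of CATHA_22855 also without outdoor replicate 1 or 3, and that of CATHA_10485 without outdoor replicate 2. DESeq2 did not call CATHA_22855 or CATHA_10485 there. The sixth member called in leaf pair 2 was CATHA_29357, at -1.19 there and -1.27 in leaf pair 3.

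Other members stood out in leaf pair 3. CATHA_2262 had the lowest log2 FC there, -3.10 ± 0.65 (SE, edgeR adjusted p = 0.0106), with 477, 412 and 107 CPM indoors and 21.2, 37.6 and 58.5 CPM outdoors. CATHA_9343 was at 103, 81.4 and 40.5 CPM indoors and at 8.49, 7.06 and 24.5 CPM outdoors (-2.45 ± 0.46, SE), and CATHA_17700 at 267, 158 and 44.5 CPM indoors and at 19.1, 18.8 and 37.7 CPM outdoors (-2.64 ± 0.62, SE). In each of these 3 genes indoor replicate 3 was the lowest and outdoor replicate 3 the highest of its group. The call of CATHA_17700 was lost without outdoor replicate 1 or 2 or indoor replicate 2, and that of CATHA_2262 without outdoor replicate 2. CATHA_13614 was at 103, 59.4 and 68.8 CPM indoors and at 12.7, 4.71 and 13.2 CPM outdoors (-2.89 ± 0.39, SE, edgeR adjusted p = 5.1e-06), whereas its leaf pair 2 samples, at 50.3, 63.6 and 44.3 CPM indoors and 42.5, 43.4 and 48.8 CPM outdoors, overlapped.

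**Figure D4:**
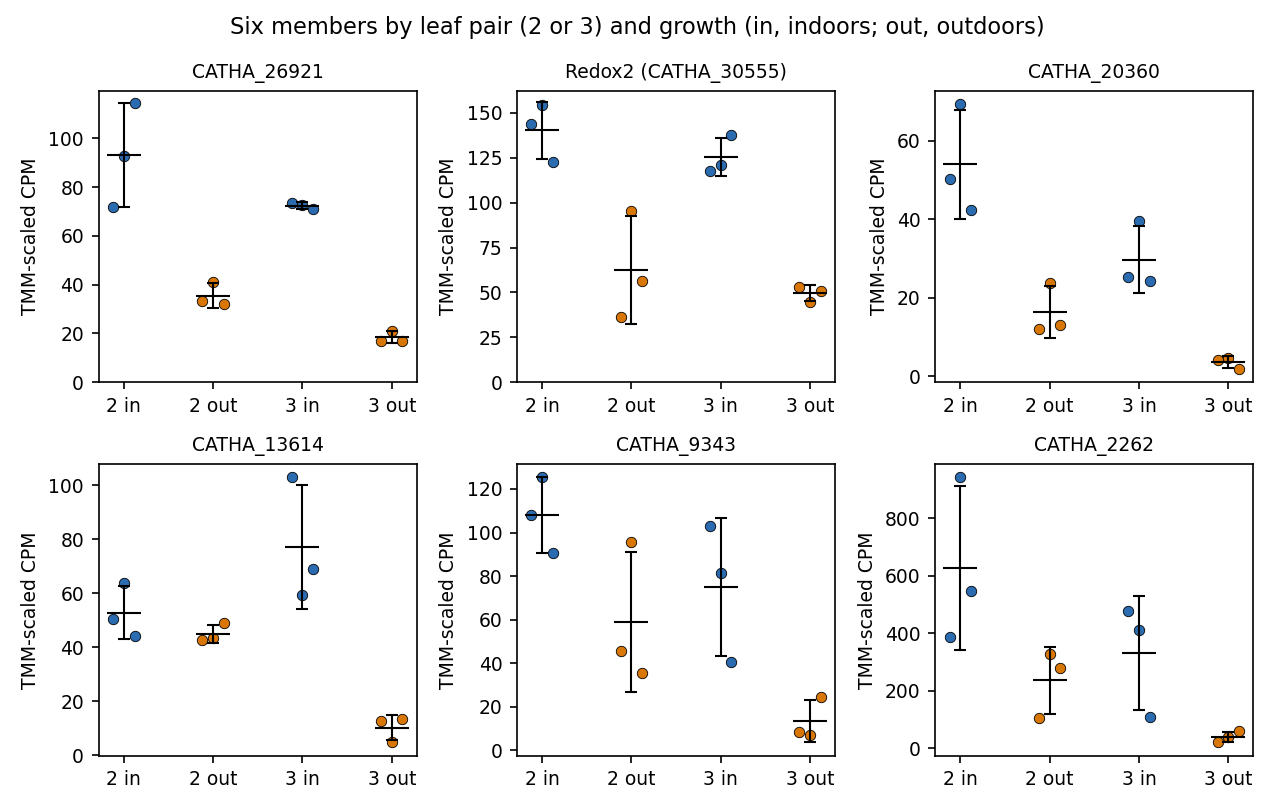
TMM-scaled CPM of 6 members in each Nanopore sample of leaf pairs 2 and 3, with the mean and SD of 3 plants as bars. CATHA_26921 and Redox2 lie lower outdoors in both leaf pairs, and CATHA_13614 has outdoor samples of 42.5 to 48.8 CPM in leaf pair 2 and of 4.71 to 13.2 CPM in leaf pair 3.

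Whether the outdoor difference depended on leaf age was tested as the interaction of leaf pair with growth condition. No member and none of the 5641 genes (0.0%) passed with edgeR, nor with DESeq2, while 9 members and 238 genes had an unadjusted p below 0.05. All 9 members had the larger fall in leaf pair 3, as had 175 of the 238 genes. The log2 FC was lower in leaf pair 3 than in leaf pair 2 for 43 of the 49 members, against 56.5% of all genes. The median difference was -0.69 against -0.08 over all genes. Because 20 of the 49 passed the read filter through indoor samples, these counts and medians are a description. CATHA_13614 came nearest, at -2.61 ± 0.53 (SE, edgeR adjusted p = 0.14). It passed with no read filter, where 0.0267% of 18738 genes were called with a larger fall in leaf pair 3. A stronger effect in leaf pair 3 than in leaf pair 2 was therefore not established at this depth for any of the 49 members by itself. For CATHA_13614 the outcome depended on the setting of the fit.

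The classes are set side by side without a test, and their counts include members that passed the read filter only through indoor samples. Of the falling class 37 members were tested, and 28 of them were lower in leaf pair 3, with a median log2 FC of -1.51. Of the rising class 8 were tested, 1 of them, CATHA_20568, was lower, and the median was -0.34. PAS, ORCA3 and CATHA_991 had too few Nanopore reads to be tested. PAS had 6, 3 and 3 reads in leaf pair 3 indoors and 0, 1 and 0 outdoors, and CATHA_991 had 3, 2 and 2 indoors and 0 in each outdoor sample, which allows up to 3 reads per sample. ORCA3 had 21, 8 and 1 reads indoors and 2, 2 and 6 outdoors, which overlapped, replicate 3 again being low indoors.

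Summed levels of cell type markers were also lower outdoors in several leaf pairs, leaf pair 1 among them. The summed level of 8 epidermal alkaloid genes (LAMT, SLS1 to SLS4, TDC, STR and SGD) was 610 to 895 CPM in leaf pair 4 indoors and 164 to 300 CPM outdoors, 387 to 667 CPM against 70.0 to 150 CPM in leaf pair 3, and 651 to 1151 CPM against 283 to 330 CPM in leaf pair 2. In leaf pair 1 it was 2361 to 2673 CPM indoors and 1701 to 1815 CPM outdoors. The sum of the idioblast genes D4H and DAT was 1062 to 1188 CPM in leaf pair 4 indoors and 509 to 633 CPM outdoors. Most of it was D4H (means of 1051 and 520 CPM), whereas DAT overlapped, at 60.4 to 95.8 CPM and 50.4 to 78.1 CPM. This sum was also lower outdoors without overlap in leaf pair 1 (1153 to 1193 CPM against 710 to 1012 CPM) and leaf pair 3 (190 to 272 CPM against 84.6 to 170 CPM). In leaf pair 2 it overlapped, at 201 to 337 CPM and 130 to 233 CPM. The sum of 6 genes of the internal phloem-associated parenchyma (G8H, 8HGO, IS, IO, 7DLGT and 7DLH) overlapped in leaf pair 4, at 507 to 709 CPM indoors and 456 to 675 CPM outdoors. In the other leaf pairs it was lower outdoors without overlap, at 251 to 477 CPM against 115 to 247 CPM in leaf pair 3, 359 to 709 CPM against 175 to 339 CPM in leaf pair 2, and 1221 to 1332 CPM against 958 to 1142 CPM in leaf pair 1. No marker was at 0 in any of these groups. The part of these shifts in the members' change was not tested, and in whole leaves fewer cells of a type cannot be told apart from less RNA per cell.

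The 9 genes set aside by the rule show how the rest of the alkaloid route behaved in the same leaves. In leaf pair 4, 6 of the 9 were lower outdoors and none higher (edgeR), where 11.4% of 17299 genes were lower and 5.75% higher. Catharanthine synthase (CS) had a log2 FC of -4.80 ± 0.69 (SE), the secologanin synthase gene SLS2 -3.41 ± 0.34 (SE), TDC, the tryptophan decarboxylase, -3.11 ± 0.49 (SE), and LAMT, the loganic acid methyltransferase, -2.29 ± 0.34 (SE). In leaf pair 1 none of the 9 passed, but 7 of them lay outside the 1.3-fold band there, and would not have become members in any case. SGD and SLS3 met the conditions with ranks of 926 and 2555. Of the 7 central pathway genes outside the list 5 were lower in leaf pair 4, among them tabersonine synthase (TS, -2.00 ± 0.14, SE) and the stemmadenine acetyltransferase SAT (-1.89 ± 0.13, SE), the enzyme step before PAS. None of the 6 parenchyma genes passed in leaf pair 4. Of the 5 tested in the Nanopore samples, 8HGO (-1.53 ± 0.51, SE) and IO (-1.31 ± 0.34, SE) were lower in leaf pair 3 and G8H (-1.33 ± 0.33, SE) in leaf pair 2. Of 15 regulators tested besides ORCA3, 6 were lower and 2 higher, with the zinc finger repressor ZCT1 at -2.99 ± 0.48 (SE) and ORCA4 and ORCA5 at -1.68 ± 0.62 and -3.88 ± 1.05 (SE). ORCA4 and ORCA5 were barely present in leaf pair 4, with means of 1.18 and 1.65 CPM indoors and 0.394 and 0.115 CPM outdoors. The samples of ORCA4 overlapped between the groups. Over all 63 tested pathway genes that were not members, 24 were lower and 4 higher in leaf pair 4, and 2 were lower in leaf pair 1, where 2.45% of all genes were lower and 4.12% higher. In leaf pair 3, 16 of 36 were lower and 1 higher.

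In sorted protoplasts the members were called in both directions. Between idioblast and mesophyll protoplasts 7 of 100 members were lower and 8 higher in idioblasts (edgeR), which is near the shares over all 18339 genes of 9.12% lower and 7.21% higher. The median log2 FC of members was -0.11, against -0.02 over all genes. All 100 entered because the fit also held leaf pairs 1 and 4, so some were hardly measured in the sorted cells. CATHA_9930, CATHA_8552, CATHA_24156, CATHA_10101 and CATHA_26846 had a log2 FC of 0 with an SE of 0 and could not be called. These genes are part of the 100 and of the median. The lower count was 2 without idioblast replicate 1 and 4 without mesophyll replicate 3, and the higher count 5 without idioblast replicate 2 or mesophyll replicate 1. The summed level of the 8 epidermal genes was 135 to 180 CPM in idioblast and 1712 to 2097 CPM in mesophyll protoplasts. The study describes the mesophyll sort as holding common mesophyll cells alone, and the part of these epidermal genes in the calls was not tested. D4H and DAT together stood at 1111 to 2542 CPM in idioblast and at 38.5 to 104 CPM in mesophyll protoplasts.

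The adenylate-forming reductase CATHA_991 was at 30.7, 40.1 and 43.4 CPM in idioblast and at 7.70, 15.2 and 18.9 CPM in mesophyll protoplasts, a log2 FC of 1.43 ± 0.32 (SE, edgeR adjusted p = 0.0024). The glycosyltransferase CATHA_29770 was likewise higher in idioblasts, at 36.3, 45.0 and 42.4 CPM against 12.5, 20.8 and 19.4 CPM (1.20 ± 0.23, SE), as was CATHA_17430 at 14.3, 10.3 and 10.7 CPM against 5.11, 2.66 and 2.01 CPM (1.84 ± 0.30, SE). In each of these 3 described members the groups did not overlap. CATHA_31273 had the highest log2 FC, 2.23 ± 0.47 (SE), from low levels of 4.94, 7.25 and 10.4 CPM against 1.11, 0.913 and 2.68 CPM. CATHA_2694 and CATHA_618 were the other members among the 5 highest, at 1.56 ± 0.49 and 1.34 ± 0.37 (SE). With the replicate number as a block CATHA_2694 did not pass (edgeR adjusted p = 0.18), and CATHA_618 was not called without mesophyll replicate 1.

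Among the called members CATHA_16904 had the lowest log2 FC in idioblasts, at 1.88, 1.95 and 3.64 CPM against 16.9, 18.1 and 26.1 CPM (-3.10 ± 0.57, SE, edgeR adjusted p = 0.00039). CATHA_28219 followed at -2.49 ± 0.40 (SE), then CATHA_36766 at -2.28 ± 0.70, CATHA_19750 at -1.65 ± 0.61 and CATHA_13614 at -1.25 ± 0.41 (SE). With the replicate block CATHA_36766 and CATHA_19750 did not pass (edgeR adjusted p = 0.051 and 0.13), while CATHA_6701 (1.73), CATHA_38714 (-1.20) and CATHA_5507 (-2.16) did, so that the counts stayed at 7 lower and 8 higher. CATHA_19750 lost its call in 9 of 12 alternatives and CATHA_36766 in 6 of 12. CATHA_13614 lost it when replicate 1 or 2 of idioblasts, or replicate 2 or 3 of mesophyll, was omitted. It was the more abundant of these, at 80.5, 115 and 154 CPM in idioblast and 174, 267 and 375 CPM in mesophyll protoplasts. PAS was at 45.5, 48.3 and 112 CPM against 53.2, 68.5 and 119 CPM, ORCA3 at 1.82, 1.95 and 3.55 CPM against 1.95, 1.24 and 4.21 CPM, and Redox2 at 13.4, 15.0 and 23.4 CPM against 20.3, 20.8 and 25.7 CPM. None of these 3 alkaloid genes passed the test, with log2 FC of -0.26 ± 0.32, -0.06 ± 0.81 and -0.40 ± 0.18 (SE).

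Total protoplasts were compared with intact leaves of the same experiment to see whether the transcripts were present in isolated cells. Of 97 members tested 48 were lower and 23 higher in protoplasts (edgeR), against 27.5% lower and 22.5% higher of 17533 genes. The median log2 FC of members was -1.30, against -0.17 over all genes, and it was -0.86 without leaf replicate 2. The leaf group had 2 samples that differed widely in some genes, ORCA3 for example being at 0.722 and 28.0 CPM, and RNA kits differed between leaves and protoplasts, which cannot be told apart from the isolation itself. The sum of the 8 epidermal genes overlapped between the groups, at 1579 to 2065 CPM in protoplasts and 872 to 2870 CPM in leaves, while that of the parenchyma genes was 141 to 272 CPM against 351 to 1797 CPM.

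Again without a test between them, 37 of 57 tested members of the falling class were lower in protoplasts and 6 higher, with a median log2 FC of -3.14. Of the rising class 7 of 32 were lower and 14 higher, with a median of 0.79. Among the falling genes CATHA_26921 was at 1.23, 1.02 and 0.846 CPM in total protoplasts and at 228 and 102 CPM in leaves, a log2 FC of -7.23 ± 0.85 (SE, edgeR adjusted p = 4.8e-05). CATHA_10485 was at 3.02, 0.888 and 0.338 CPM against 84.0 and 393 CPM (-7.31 ± 0.93, SE), and CATHA_12697 at 0, 0.137 and 0 CPM against 6.89 and 14.9 CPM (-7.43 ± 1.02, SE). CATHA_9930 and CATHA_10101 had no count in any protoplast sample. Against a floor of 3 counts over the total protoplast group they were at least 142.65-fold and at least 25.6-fold lower there than in leaves, where they were at 20.3 and 1.84 CPM and at 2.83 and 1.14 CPM. Without leaf replicate 1 these bounds were 23.7686-fold and 14.7-fold, and DESeq2 did not call CATHA_9930. Redox2 was at 18.3, 25.3 and 28.5 CPM in protoplasts and 142 and 103 CPM in leaves (-2.28 ± 0.28, SE).

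The rising class included those with the largest gain in protoplasts. CATHA_10087 stood at 41.3 and 41.3 CPM in leaves and at 9097, 9993 and 9454 CPM in total protoplasts, a log2 FC of 7.92 ± 0.34 (SE, edgeR adjusted p = 1.7e-07). CATHA_15682 was at 12.9967 and 12.5 CPM against 2014, 2569 and 2697 CPM (7.65 ± 0.43, SE). CATHA_6018, which had rank 5 in the list and was at most 17.4 CPM in any leaf of pair 4, was at 2.499 and 5.79 CPM in leaves and at 169, 236 and 202 CPM in protoplasts (5.70 ± 0.50, SE). CATHA_13898 (4.81 ± 0.55, SE) belonged to the same class, and CATHA_19791 (6.44 ± 0.39, SE) to the genes with neither change. CATHA_991 was higher in protoplasts too (1.20 ± 0.42, SE), while PAS, at 49.3, 75.4 and 93.6 CPM against 44.1 and 21.4 CPM, did not pass (1.22 ± 0.50, SE, edgeR adjusted p = 0.056).

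**Figure D5:**
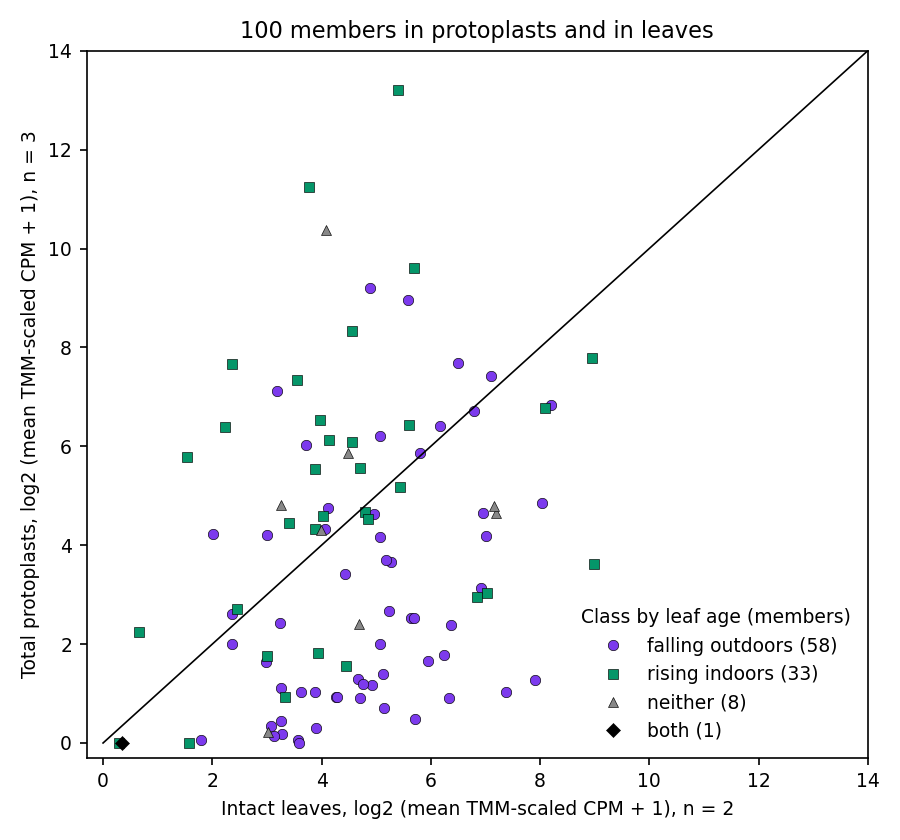
Mean level of each of the 100 members in intact leaves (n = 2) and in total protoplasts (n = 3), as log2 (TMM-scaled CPM + 1), with the line of equal levels and symbols for the class of change with leaf age. Many of the 58 falling members lie below the line near the bottom, and several of the 33 rising members lie far above it, CATHA_10087 highest at a mean of 9515 CPM in protoplasts.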

How the data were processed

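Counts for the Illumina samples were deposited by the authors as whole-number read counts per gene (trimming with Trimmomatic 0.39, alignment to the C. roseus genome v2, featureCounts 2.0.1 on the study's own gene models, with no strand option given, so that overlapping genes on opposite strands cannot be told apart). For the Nanopore samples the deposited values are estimated counts per gene, made by the authors with minimap2 and Salmon 1.4.0, and were rounded to whole numbers here. Gene descriptions come from the study's tables of alkaloid pathway genes, differential expression, co-expression modules and transcription factors. Its full annotation of the gene models was not used. No member ID matched the gene table given as reference, so no sequences or coordinates are shown.

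Members were found on CPM of column totals. The members and the gene lists were chosen with earlier results of these data known. Tests used edgeR 4.0.16 in R 4.3.3 (filterByExpr, TMM scaling, robust quasi-likelihood fit) on all genes, with Benjamini-Hochberg adjustment and thresholds of 0.05 and 1 (log2). Leaf pairs 2 and 3 were fitted in 12 samples, idioblast against mesophyll in 21 Illumina samples (without the leaves of that experiment) and total protoplasts against leaves in 11. The TMM-scaled CPM of protoplasts and leaves come from those 11. Named genes were the described members, the 10 with the largest ratio, up to 5 called members per direction and comparison, the pathway lists, and 3 genes on each side of the rank limit. CATHA_29357, CATHA_20568 and CATHA_29770 in idioblasts were named after their values were seen.

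Idioblast and mesophyll samples with the same number can be paired, since each replicate came from its own group of plants. The deviations of same-numbered samples from the group means correlated at 0.135 to 0.304. The main fit did not use this pairing, which entered only in the alternative with a replicate block. The sources used here do not tie the numbers of leaf samples to plants. Indoor and outdoor plants were different and not paired. Alternatives were DESeq2 1.42.0, RLE scaling, no read filter, fewer samples in the fit, a replicate block and leaving out each sample. The procedure was tested on simulated data.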

Additional observations from a re-analysis of the deposited data

How the results depend on the processing

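Of the 100 members, 58 stayed with a 1.5-fold band for leaf pair 1, 58 with group medians, and 54 to 90 without 1 sample, so the list is sensitive to the leaf pair 1 condition. With TMM scaling, 5 CPM added or a minimum of 5 CPM, 80, 83 and 74 stayed. Without 1 sample, the members called lower numbered 2 to 6 in leaf pair 2 and 17 to 27 in leaf pair 3. For the interaction, 1 member, CATHA_13614, passed with no read filter and with the replicate block (-2.52, edgeR adjusted p = 0.0124), and 0 to 1 passed without 1 sample. Leaf pairs 2 and 3 share only a replicate number: each sample correlated best with its own number, at 0.064 to 0.426, a hint from the data and not from the design. The same was seen between indoor and outdoor samples of leaf pair 2 (0.029 to 0.104), which are different plants, though not for indoor replicates 1 and 3 of leaf pair 3. A shared number thus need not mean a shared plant. The members lower in idioblasts numbered 2 to 9 and those higher 5 to 8 without 1 sample. The replicate block moved no other count of member calls by more than 1.5 times. Without 1 sample of the protoplast experiment, 45 to 48 members were lower and 22 to 30 higher in total protoplasts than in leaves. Of 30 calls of single members followed through the alternatives none changed direction, 18 held throughout and 12 were lost under at least 1. Those lost most often were CATHA_19750 (9 of 12 alternatives), CATHA_36766 and CATHA_2694 (6 of 12 each) and CATHA_13614 (4 of 12) in idioblasts, CATHA_22855 (4 of 10), CATHA_10485 (3 of 10) and Redox2 (2 of 10) in leaf pair 2, and CATHA_17700 (3 of 10) in leaf pair 3. The remaining calls were lost under 1 alternative each. A fit of idioblast against mesophyll in the 9 protoplast samples, chosen after seeing the data, called 6 members lower and 8 higher. Nanopore depth limits the tests of leaf pairs 2 and 3, where 51 members had too few reads, and 2 leaf samples limit the comparison with protoplasts. All leaf pair samples of a growth condition come from 3 plants at 1 site and time. The fit of leaf pairs 2 and 3 took leaves of the same plants as separate samples, so its p-values measure the spread between those samples. Replicates of the protoplast experiment were pools of several plants. The fit of idioblasts against mesophyll shared its estimate of the spread with leaf pairs 1 and 4.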
